A study of Mus musculus with 20 samples.

Results

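Expression of 9 genes that encode subunits of the NADPH oxidases was followed in the lungs of 20 mouse dams: Noxo1, Noxa1, Nox1, Nox4, Cybb, Cyba, Ncf1, Ncf4 and Duox1. They were taken by name, as all probes whose gene name in the spot files is one of these symbols, which gave 12 probes of 41174 on the array and 9 of 27670 genes. The members were chosen by family with their measured differences in M between the dose groups already known, so those differences are given below as a description and carry no test. Of the 9 genes, 8 passed the filter on dim probes, and Nox1 did not.

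The animals were pregnant C57BL/6BomTac females that received carbon black (Printex 90, a soot-like nanoparticle) or its vehicle, Milli Q water, into the trachea. Each dam had 4 instillations (days 7, 10, 15 and 18 of gestation), and the totals were 11 µg (low), 54 µg (medium) and 268 µg (high), given as 2.75, 13.5 or 67 µg at a time. Every group, the controls included, had carried a pregnancy and nursed a litter, and lungs were taken after weaning, 26 to 27 days after exposure. Each group had 5 dams, with 1 dual-colour array per dam: lung RNA in Cy5 against a commercial universal reference RNA in Cy3.

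NADPH oxidases are membrane enzymes that pass electrons from NADPH to oxygen and so make superoxide or hydrogen peroxide. The phagocyte enzyme, known for microbial killing by neutrophils and macrophages, joins the catalytic subunit Cybb (NOX2) and its membrane partner Cyba (p22phox) to cytosolic subunits that include Ncf1 (p47phox) and Ncf4 (p40phox). Nox1, an epithelial oxidase, uses Noxo1 as its organiser and Noxa1 as its activator in place of the cytosolic phagocyte subunits. Nox4 needs Cyba but no cytosolic organiser, and Duox1 is a peroxide-producing oxidase of airway epithelium.

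Sequences of 6 member probes are shown. Each probe is 60 bases long, the coordinates are those of the array design on mouse build mm7, and the sequences are printed 5′ to 3′ as in the spot files. The next 4 are shown because their ends lie further apart in the genome than their length, so each joins sequence from separate exons. They read the spliced transcripts of Noxa1 (chr2:25094027-25094250, minus strand), Nox4 (chr7:83259106-83274126, plus strand), Cybb (chrX:7875782-7877709, minus strand) and Cyba (chr8:121068998-121069266, minus strand).
Noxa1: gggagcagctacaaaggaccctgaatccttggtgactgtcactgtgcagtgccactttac
Nox4: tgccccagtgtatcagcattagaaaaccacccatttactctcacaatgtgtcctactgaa
Cybb: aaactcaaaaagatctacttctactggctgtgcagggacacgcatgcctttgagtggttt
Cyba: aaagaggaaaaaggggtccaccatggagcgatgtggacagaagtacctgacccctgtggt

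Noxo1, with the largest difference among the 9 genes, is read by 1 probe at chr17:22882646-22882705 (plus strand), and its first 30 bases are shown. The Nox1 probe at chrX:128812256-128812315 (minus strand) is shown because its signal was not well above background.
Noxo1: actgggacaggaacaagggactcgggttcc
Nox1: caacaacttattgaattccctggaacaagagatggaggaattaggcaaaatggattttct
Nox4, Cybb and Ncf1 each have a pair of probes, and the brighter one stands for the gene. The sequences shown for Nox4 and Cybb are those of the dimmer, second probes, whose values are given separately; those shown for Noxa1, Cyba and Noxo1 belong to each gene's only probe. Over 63 pairs of member probes for different genes, the longest run of bases in common was 10, so no stretch longer than that was shared.

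Values are M, the log2 of lung over reference after background correction and normalisation. An M compares 1 gene between dams, and it does not rank genes against each other, since the reference holds an unknown amount of each. All 10 genes of a list typical of lung tissue, such as the surfactant proteins, were well above background on all 20 arrays. Between 63.3% and 77.8% of Cy5 spots per array were well above background, and the number of arrays limits the precision. The low-dose array of dam 27 differed from the rest: 1 spot, with a Cy3 signal minus local background of -34530.5 intensity units, compressed its M values to a slope of 0.70 against the other arrays, which ran from 0.96 to 1.06. With the background parameters of that array refitted without this spot the slope was 0.99, and the refitted value is given wherever the low dose or a standard error depends on it. All 4 groups were present on slides 1 to 3; the medium dose was missing from slides 4 and 5, and its other 2 arrays made up slide 6. On slides 1 to 5 each group kept the same position, so position and group cannot be told apart.

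Noxo1 was the member that stood out at the high dose. This organiser subunit had M values of 0.76, 0.63, 0.76, 0.35 and 0.63 in control dams 4, 7, 14, 15 and 18. High-dose dams 60, 62, 63, 64 and 65 had 1.00, 2.24, 2.38, 1.44 and 1.78. The 5 high-dose dams were all above the highest control, dam 60 by the least and dam 63 by the most. The group means were 0.63 ± 0.17 and 1.77 ± 0.57 (SD, n = 5 each), a difference of 1.14 ± 0.19 (SE, log2; 95% interval 0.74 to 1.54), or 2.20-fold. This SE and interval use a spread shared by all 4 groups. The high-dose dams were more spread than the other groups, so both understate the uncertainty of this comparison. Because whole lung was measured, more cells that express a gene and more of its RNA per cell cannot be told apart, and the same holds for lower values.

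The lower doses did not share this difference. Noxo1 was 0.72, 0.52, 0.25, 0.40 and 0.44 in low-dose dams 25, 27, 28, 31 and 36, with 0.65 for dam 27 after refitting. Medium-dose dams 46, 47, 48, 49 and 50 had 0.69, 0.54, 0.29, 0.70 and 0.42. Both groups overlapped with the controls, and the differences were -0.16 ± 0.19 (-0.13 refitted) for low and -0.10 ± 0.19 for medium. Ordered by mean, low, medium and control did not differ beyond their spread, and high stood above them. The slope over the 4 dose steps was 0.35 ± 0.06 log2 per step, although the low and medium means lay below the control mean.

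On each of the 5 slides that carried both groups, the high-dose dam had more Noxo1 than the control dam beside it. The differences were 0.23, 1.62, 1.62, 1.09 and 1.15 on slides 1 to 5. In the fit over all genes (limma, Benjamini-Hochberg adjusted p under 0.05), 14 of 19914 genes, 0.0703%, were called at the high dose, all higher, and Noxo1 was 1 of them, as the only member of 8. With the refitted array 61 genes were called, 0.306%, and Noxo1 was again the only member. High-dose dams lay wholly above the controls for 1.19% of all genes. Since this contrast chose the members, nothing is read from these counts. The call was lost with slide as a fixed block, with median centring or scaling between arrays, when the 2 groups were fitted alone, and when control dam 7, 15 or 18 or high-dose dam 62, 63 or 65 was left out; the difference over all leave-one-out fits stayed between 0.99 and 1.33.

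**Figure D1:**
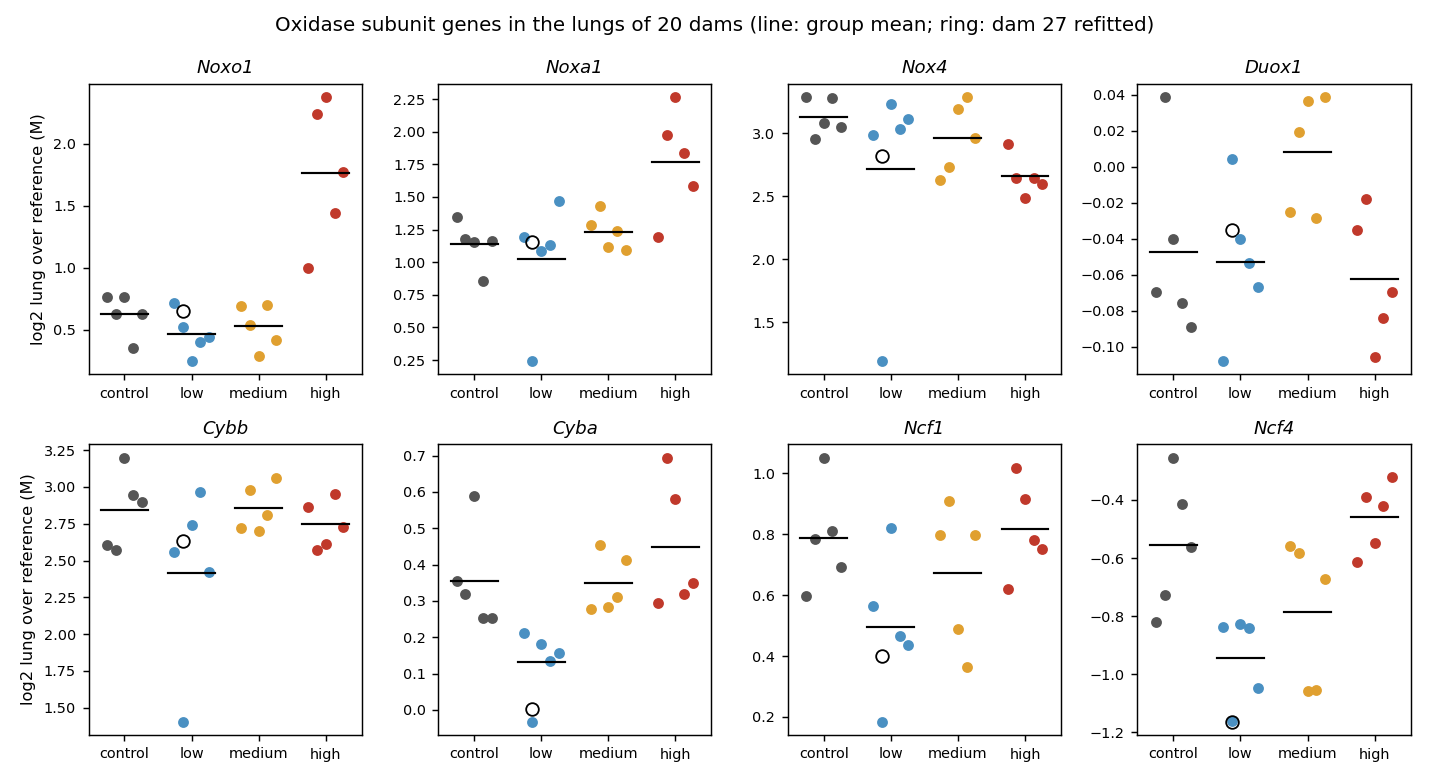
M (log2 of lung over reference) of the 8 measured members in each of the 20 dams, by dose group; points are dams, lines are group means, and the open ring is the refitted value of low-dose dam 27. The 5 high-dose dams lie above all controls for Noxo1 (1.00 to 2.38 against 0.35 to 0.76) and below all controls for Nox4, while Cybb, Cyba, Ncf1 and Ncf4 overlap between these groups.

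Noxa1, the activator that works with Noxo1, was higher in 4 of the 5 high-dose dams than in any control. Control dams 4, 7, 14, 15 and 18 had M values of 1.35, 1.18, 1.15, 0.85 and 1.17. High-dose dams 60, 62, 63, 64 and 65 had 1.19, 1.98, 2.27, 1.83 and 1.58. Dam 60 lay within the control range, as the dam that was also lowest for Noxo1, and dam 63 was the highest for both genes. The difference was 0.63 ± 0.19 (SE, log2; 95% interval 0.23 to 1.04), or 1.55-fold, and with the refitted array its SE was 0.14. Here too the fit used a spread shared by all groups, while the SD was 0.41 in high-dose and 0.18 in control dams. Noxa1 was not among the genes called in either fit.

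Within slides the Noxa1 difference ran from -0.16 on slide 1 to 1.11 on slide 3, and the high-dose dam was above the control dam on 4 of 5. The medium-dose dams, at 1.28, 1.43, 1.12, 1.24 and 1.09, overlapped with the controls. The low-dose dams did so too, at 1.19, 1.08, 1.13 and 1.47 for dams 25, 28, 31 and 36, and for dam 27 at 0.24 before and 1.16 after refitting. By mean the order after refitting was control, low, medium and high, and every neighbouring pair overlapped. The reference channel of this probe was well above background on 9 of 20 arrays, so its ratio is set against a dim signal. The scanning software's own ratio gave a high-dose difference of 0.03 ± 0.42, and the Cy5 signal alone gave 0.96 ± 0.22.

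Nox1, the catalytic subunit that Noxo1 and Noxa1 serve in epithelium, could not be measured. Its probe was not well above background in either channel on any of the 20 arrays, so no fold is given for it. With this probe at background, the arrays hold values for the organiser and the activator but not for the Nox1 enzyme.

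Nox4, an oxidase that is active without a cytosolic organiser, was lower at the high dose. Control dams 4, 7, 14, 15 and 18 had M values of 3.29, 2.96, 3.08, 3.28 and 3.05. High-dose dams 60, 62, 63, 64 and 65 had 2.92, 2.65, 2.48, 2.65 and 2.59. All high-dose dams were below all controls, with dam 60 only just below control dam 7. High-dose dams lay wholly below the controls for 1.34% of all genes. The difference was -0.47 ± 0.27 (SE, log2), or 0.72 times the control level, with a 95% interval that includes 0 (-1.04 to 0.09). With the refitted array its SE was 0.12 (95% interval -0.72 to -0.23).

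The high-dose dam had less Nox4 than the control dam on all 5 slides, by -0.63 to -0.31. Nox4's exon-joining probe, whose sequence is printed above, gave -0.42 ± 0.25 and was also lower on all 5 slides, but its groups overlapped, since dam 60 had 2.15 and control dam 18 had 1.99. Nox4 was called neither with the array of dam 27 as it is nor refitted; it was called without background correction and in the deposited value table, where the differences were -0.61 and -0.62. The medium-dose dams, at 2.62, 2.73, 3.19, 3.29 and 2.96, overlapped with both groups. Low-dose dams 25, 28, 31 and 36 had 2.99, 3.24, 3.03 and 3.11, while dam 27 had 1.19 before and 2.82 after refitting. After refitting, the order of means from the top was control, low, medium and high (3.13, 3.04, 2.96 and 2.66), and neighbours overlapped.

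Duox1, the airway peroxide producer, was dim: its probe, printed in 10 spots per array, was well above background in the lung channel on 13 of 20 arrays and in the reference channel on 9. Its M values ran from -0.11 to 0.04 over all dams. The differences from control were -0.02 ± 0.04 for high, 0.06 ± 0.04 for medium and -0.01 ± 0.04 for low. Before refitting all 4 groups overlapped. After it the low-dose dams (-0.108 to -0.035) lay just below the medium-dose dams (-0.028 to 0.039). With the scanning software's own ratio the differences were 0.59 ± 0.20 for medium, 0.25 ± 0.20 for high and 0.11 ± 0.20 for low, and in the deposited value table they were 0.12 ± 0.04 for medium and 0.05 ± 0.04 for high.

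**Figure D2:**
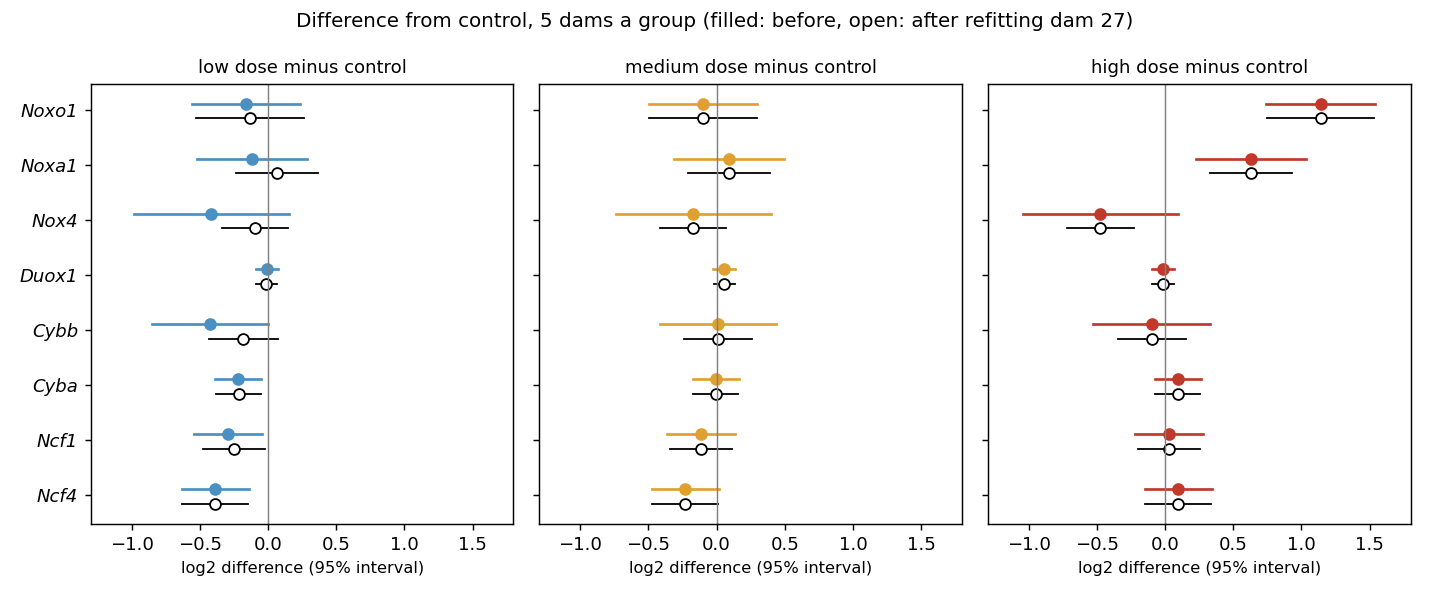
Log2 difference of each member from the controls at the low, medium and high dose, with its 95% interval from the fit. Intervals use a spread shared by all 4 groups. Filled points are the values before and open points those after the array of dam 27 was refitted. At the high dose Noxo1 (1.14) and Noxa1 (0.63) lie to the right of 0 and Nox4 (-0.47) to the left, while the phagocyte subunits lie between -0.10 and 0.10.

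The 4 phagocyte subunits differed little at the high dose. Cybb, the catalytic subunit, had 2.61, 2.57, 3.20, 2.94 and 2.90 in control dams 4, 7, 14, 15 and 18 and 2.87, 2.57, 2.61, 2.95 and 2.73 in high-dose dams 60, 62, 63, 64 and 65. Its difference was -0.10 ± 0.20 (0.12 refitted), and its second probe gave -0.08 ± 0.18, a value in which control dam 15 is missing because its spot was an outlier. Cyba, a membrane partner of oxidases that include Cybb and Nox4, differed by 0.09 ± 0.08. Ncf1, the organiser of the phagocyte enzyme and the counterpart of Noxo1, differed by 0.03 ± 0.12, and its second probe by -0.02 ± 0.11. Ncf4 differed by 0.10 ± 0.12.

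For each of these 4 genes the high-dose and control dams overlapped, and the slides were split in direction: the high-dose dam was above the control dam on 3 of 5 slides for each. The 95% intervals bound the differences: -0.53 to 0.33 for Cybb (-0.35 to 0.15 refitted), -0.08 to 0.26 for Cyba, -0.22 to 0.28 for Ncf1 and -0.15 to 0.34 for Ncf4.

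**Figure D3:**
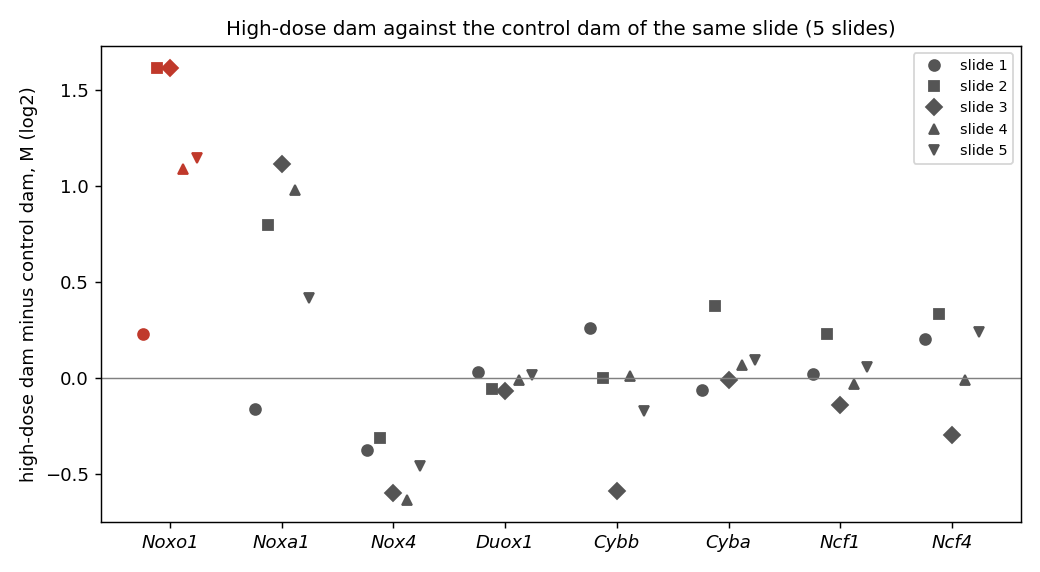
M of the high-dose dam minus M of the control dam on the same slide, for the 5 slides that carried both groups (symbols) and the 8 measured members. Noxo1 is above 0 on all 5 slides (0.23 to 1.62) and Nox4 below 0 on all 5 (-0.63 to -0.31), while the phagocyte subunits fall on both sides of 0.

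At the low dose the phagocyte subunits lay lower than in the controls, among which dam 14 was the highest for each subunit. Over the 20 leave-one-out fits, before refitting, the low-dose difference ran from -0.45 to -0.31 for Ncf4 and from -0.25 to -0.16 for Cyba. For Ncf1 it ran from -0.37 to -0.22 and for Cybb from -0.56 to -0.17. Ncf4, a regulatory cytosolic subunit, had M values of -0.82, -0.73, -0.25, -0.42 and -0.56 in control dams 4, 7, 14, 15 and 18. Low-dose dams 25, 27, 28, 31 and 36 had -0.84, -1.16, -0.83, -0.84 and -1.05. Every low-dose dam was below every control, with dam 28 just below control dam 4 and dam 27 the furthest. The difference was -0.39 ± 0.12 (95% interval -0.63 to -0.14), or 0.76 times the control level, and was the same after refitting.

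Cyba showed the same order at a smaller size. Control dams 4, 7, 14, 15 and 18 had 0.36, 0.32, 0.59, 0.25 and 0.25. Low-dose dams 25, 28, 31 and 36 had 0.21, 0.18, 0.14 and 0.16, and dam 27 had -0.03, or 0.0017 after refitting. The groups did not overlap, and the difference was -0.22 ± 0.08 in both settings. Low-dose dams lay wholly below the controls for 0.829% of all genes, or 0.748% after refitting.

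Ncf1 and Cybb were lower with overlap. Ncf1 had 0.60, 0.79, 1.05, 0.81 and 0.69 in the controls and 0.56, 0.82, 0.46 and 0.44 in low-dose dams 25, 28, 31 and 36, with 0.18 (0.40 refitted) in dam 27. Its difference was -0.29 ± 0.12, or -0.25 ± 0.11 refitted, and its second probe gave -0.31 and -0.25. Low-dose dam 28 was the only one within the control range, and the others lay below every control. Cybb differed by -0.43 ± 0.20, but by -0.18 ± 0.12 once dam 27, which moved from 1.40 to 2.63, was refitted.

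Against the control dam of the same slide, the low-dose dam was lower on 5 of 5 slides for Ncf4, Cyba and Ncf1, and on 3 of 5 for Cybb after refitting. By the second Cybb probe it was lower on all 4 slides that had a value. None of the 8 members was called at the low or the medium dose by limma, where 0 of 19914 genes (0%) were called. For low against control, 3 of the 8 members had an unadjusted limma p under 0.05, beside 1472 of all genes. For medium against control, 0 members had such a p, beside 1826 of all genes. The members were chosen with these differences known too, so nothing is read from how many of them had such a p. With median centring in place of loess, with which the median of all genes at the low dose was 0.12 and not -0.02, Cyba was 0.05 higher and Ncf4 0.09 lower (-0.09). With scaling between arrays Cybb was 0.10 higher at the low dose.

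All 4 phagocyte subunits overlapped with the controls in medium-dose dams. Ncf4 differed by -0.23 ± 0.12, with dams 48 and 49 at -1.06 and -1.05 and dams 46, 47 and 50 at -0.56, -0.58 and -0.67. Ncf1 showed the same 2 dams lowest, at 0.49 and 0.37, and differed by -0.11 ± 0.12. Cybb and Cyba differed by 0.01 ± 0.20 and -0.01 ± 0.08. The 2 medium-dose arrays of slide 6 are those of dams 49 and 50.

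Blood and tissue cell markers are set beside these values, as mean M over each list with the refitted array. Of 12 macrophage and monocyte markers 10 were lower at the low dose (median -0.20, against -0.0027 over all genes), and their mean ran from 1.62 to 1.90 in low-dose dams and from 1.80 to 2.28 in controls. All 10 measured neutrophil markers were lower at the low dose (median -0.48), with means of 1.82 to 2.54 against 2.24 to 3.20. Control dam 14 set the upper end of both control ranges, and the next highest controls were at 1.87 for macrophage and 2.57 for neutrophil markers. At an unadjusted p under 0.05 there were 4 macrophage and 2 neutrophil markers after refitting, beside 1326 of all 19914 genes, and none was called by limma. Of all genes 51.3% were lower at the low dose after refitting. So were 6 of 7 B and plasma cell markers (median -0.10), 3 of 4 eosinophil markers (-0.26) and 4 of 10 airway epithelial markers (0.07). All 10 lung tissue markers were higher (0.20), as they were at the medium dose (0.25). At the high dose 9 of the 10 were higher (0.18). At the medium dose 9 of 10 neutrophil markers (median -0.36) and 9 of 12 macrophage markers (-0.14) were lower, beside 49.2% of all genes. Elane, a neutrophil granule protease, was not well above background on any array. The part of macrophages, neutrophils and the other listed cells in the low-dose values of the phagocyte subunits was not tested.

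At the high dose, 10 airway epithelial markers had a median difference of 0.02 (limma, 0 called and 0 at an unadjusted p under 0.05), with means of 2.45 to 3.58 in high-dose dams and 2.94 to 3.41 in controls. Neutrophil markers had a median of -0.24, with 9 of 10 lower, and macrophage markers of 0.07, with 5 of 12 lower. Of all genes 50.5% were lower, and their median was -0.0012. In the macrophage list the largest statistics belonged to Siglecf, a marker of alveolar macrophages (-0.80 ± 0.25), and Cd14, a co-receptor for endotoxin (0.75 ± 0.24). In the neutrophil list they belonged to the granule genes Camp (-1.20 ± 0.34) and Ngp (-0.95 ± 0.29). Before refitting, neither list had a gene called by limma, at 4 and 2 genes with an unadjusted p under 0.05, beside 1995 of all 19914 genes; Siglecf was called lower with the refitted array.

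Of 7 B and plasma cell markers, all measured, 5 were higher at the high dose (median 0.20). Their mean ran from -0.51 to 0.67 in high-dose dams and from -0.53 to -0.12 in controls. The largest statistics were those of Jchain, the joining chain of secreted antibodies (1.78 ± 0.36), and Tnfrsf17, a receptor of plasma cells (0.80 ± 0.18). By limma 0 of the 7 were called before refitting, with 2 at an unadjusted p under 0.05, and 1, Jchain, was called higher after it. The part of epithelial, myeloid and B-lineage cells in the Noxo1, Noxa1 and Nox4 values was not tested.

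Genes that work with the oxidases differed little at the high dose. Of 16 partner genes, 14 were measured, and by limma 0 were called at any dose, before or after refitting; at the high dose 0 of the 14 had an unadjusted p under 0.05, beside 1995 of all 19914 genes. Of the 14, 9 were above 0, with a median of 0.02 against -0.0012 over all genes. The GTPases Rac1 and Rac2, which switch on assembled oxidases, differed by 0.03 ± 0.10 and -0.09 ± 0.09. The differences furthest above 0 were those of Hvcn1, the proton channel that balances the charge moved by the phagocyte oxidase (0.25 ± 0.14), and Sh3pxd2b, an organiser-like scaffold (0.18 ± 0.11).

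The scaffold Sh3pxd2a differed by -0.02 ± 0.06, the kinase Prkcd, which phosphorylates Ncf1, by 0.02 ± 0.07, and the exchange factor Vav1 by 0.10 ± 0.08. Cybc1, a chaperone for the Cybb and Cyba pair, differed by 0.03 ± 0.05, and Nrros, which limits Cybb, by -0.01 ± 0.12. Rap1a was at 0.06 ± 0.08 and Poldip2, a Nox4 partner, at -0.06 ± 0.08. Duox2 differed by -0.18 ± 0.28, and Duoxa2, its maturation factor, by 0.01 ± 0.06. Nox3 was not well above background on any array, and Duoxa1 did not pass the filter.

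At the low dose, after refitting, 11 of the 14 partner genes were below 0, with a median of -0.09, and 2 had an unadjusted p under 0.05; of all 19914 genes 51.3% were below 0, with a median of -0.0027, and 1326 had such a p. Rac2, the form found in blood cells, was -0.26 ± 0.09 with every low-dose dam below every control, as for 0.748% of all genes. At the medium dose 2 of the 14 had an unadjusted p under 0.05 before refitting, beside 1826 of all genes.

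**Figure D4:**
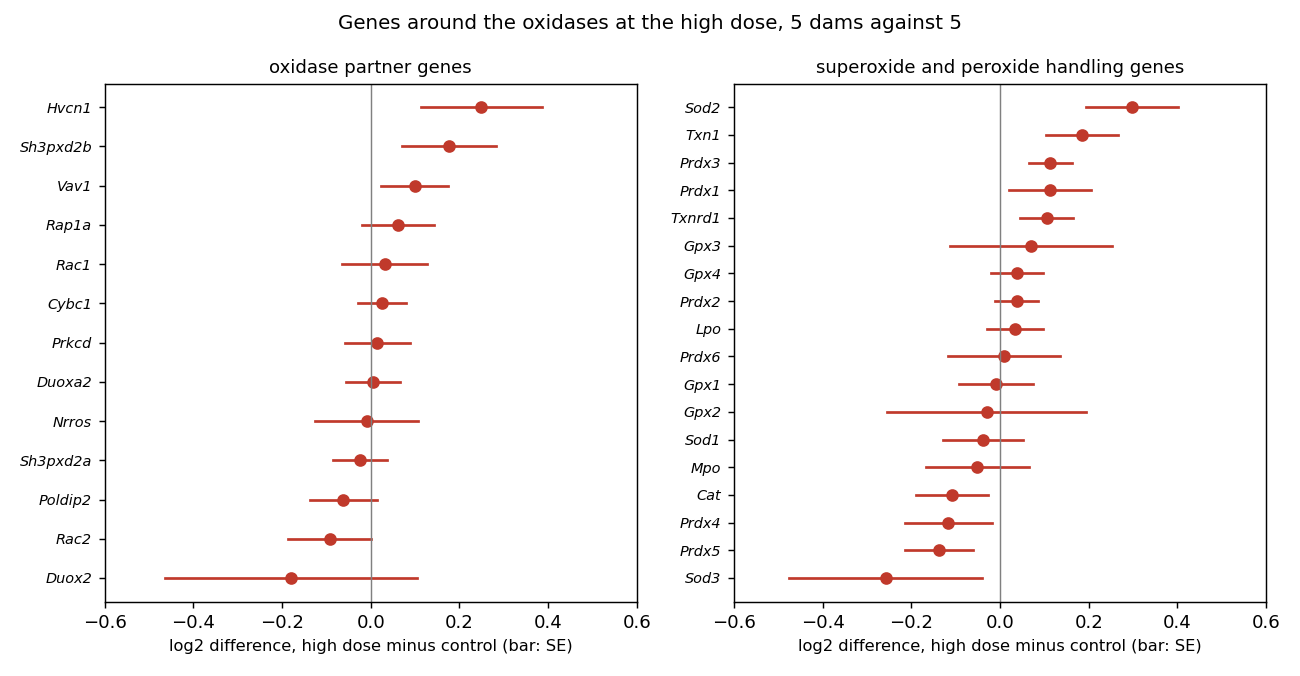
Log2 difference between high dose and control for measured oxidase partner genes (left) and the 18 measured genes that handle superoxide and peroxide (right), 5 dams against 5; bars are the SE. No gene in either panel was called, and all values lie between -0.26 and 0.30.

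Enzymes that remove the products of the oxidases are given for comparison. Of 19 such genes 18 were measured, and limma called 0 at the high dose, with 3 at an unadjusted p under 0.05 (1995 of all 19914 genes) and a median of 0.02. The 4 with the largest statistics were Sod2, the mitochondrial superoxide dismutase (0.30 ± 0.10), the peroxiredoxin Prdx3 (0.11 ± 0.05), the thioredoxin Txn1 (0.18 ± 0.08, log2) and the peroxiredoxin Prdx5 (-0.14 ± 0.08).

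The genes whose M followed Noxo1 most closely over the 20 arrays were Ly6f (r = 0.97), Cxcl5 (r = 0.95), Cxcl3 (r = 0.95), Lcn2 (r = 0.92) and Lemd1 (r = 0.92), out of 15548 genes compared. Cxcl5 and Cxcl3 are chemokines that attract neutrophils, and Lcn2 is a secreted protein that binds bacterial siderophores. With each group's mean removed and the 20 arrays pooled, the correlations were 0.87, 0.85, 0.84, 0.74 and 0.77. These genes were picked for a high r on the same arrays, and no correlation within a single group was computed. The SD of Noxo1 was 0.57 among high-dose dams and 0.17, 0.17 and 0.18 among control, low-dose and medium-dose dams. High-dose dams therefore weigh most in the pooled values. Cxcl5 differed by 3.04 ± 0.42 at the high dose and Ly6f by 1.70 ± 0.23. With the refitted array 4 of these 5 stayed among the closest 5 and Tgm1 took the place of Lemd1. All points share arrays and group structure, and these correlations are a description.

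For Cybb the closest 5 were Il10ra (r = 0.95), the receptor for interleukin 10, followed by Apoc2, Cyp4f18, Mrc1 and Pilra (r = 0.94, 0.93, 0.93 and 0.92). After refitting dam 27 only Il10ra (r = 0.85) was still among them, and the others were Pitpnm1 (r = 0.91), Gpsm3, Dcaf12 and Ackr3. Among the members, with the refitted array, Noxo1 and Noxa1 had r = 0.90 over the 20 arrays and 0.79 with group means removed. Noxo1 and Nox4 ran in opposite directions (r = -0.73, and -0.48 with group means removed). Of the phagocyte subunits, Cyba followed Noxo1 most closely (r = 0.63, and 0.60 with group means removed). Ncf4 and Ncf1 had r = 0.50 and 0.43 with Noxo1 (0.05 and 0.26), and Cybb had -0.23 (-0.40). Ncf1 and Ncf4 had r = 0.85 (0.79 with group means removed), and Cyba and Ncf1 had r = 0.77 (0.68).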

How the data were processed

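The authors deposited, for each of 20 arrays, a spot table with median signals and local backgrounds as scanner intensity, and a dye ratio in log10 units, made with Agilent Feature Extraction 9.5.1.1 (18 arrays, design build mm7) or 10.1.1.1 (2 arrays, mm8), per the file headers. They also deposited a table of log2 lung-over-reference values of unstated normalisation, whose column medians ran from -0.05 to -0.03.

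Signals were corrected with normexp (offset 50) and loess within arrays in limma 3.58.1 under R 4.3.3, with control spots weighted 0 and outlier spots dropped. A probe was kept if its Cy5 signal was well above background on at least 3 of 5 arrays of a group; a gene needed 16 values and took its brightest probe. One model (lmFit, eBayes) covered 19914 genes and 20 arrays, with Benjamini-Hochberg adjustment at 0.05, two-sided. Groups come from the sample titles, and each dam is 1 sample. Names came from the array's accessions through RefSeq tables where they matched (22951 of 41174 probes), otherwise from symbols.

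The members and gene lists were chosen with earlier results of these data known. Named are all members and partner genes, except 1 partner gene that is counted but not reported here, the 4 peroxide and superoxide genes with the largest statistics, the 2 leading markers of a list, and the 5 genes most like Noxo1 and Cybb. Eosinophil (4 of 5 measured) and other-organ (6) markers had 0 genes called by limma at the high dose, with 1 and 0 at an unadjusted p under 0.05; with the refitted array 1 eosinophil marker was called. The refitted array is that of dam 27, with normexp parameters estimated without 1 spot. Alternatives covered background, ratio source, normalisation, filters, probes, slide and scan day, and each array left out.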

Additional observations from a re-analysis of the deposited data

Results flagged for a closer look

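In the low-dose group, the Nox4 value of dam 27 (M = 1.19) lay apart from the other 4 dams, with a gap to the nearest of 0.88 of the group's range. It was the only 1 of 43 member probe and group combinations to stand apart by Dixon's test at the 95% level; chance alone gives about 1 in 20. Refitting that array's background moved the value to 2.82. After refitting, 1 of 43 combinations again stood apart. It was low-dose Noxa1, with dam 36 at 1.47 and the other dams from 1.08 to 1.19.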

How the results depend on the processing

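The count of genes called at the high dose, 14 as reported, was 184 without background correction, 61 with the refitted array, 9 with the scanning software's ratio, 206 with the deposited value table, 3 with median centring, 45 with scaling between arrays, 50 with slide as a random block and 1 from the 2 groups alone. In the same settings but the last, in that order, the trend over dose steps, 15 genes, gave 232, 43, 3, 270, 3, 47 and 27, and 29 without a filter on dim probes. At the medium dose 0 genes became 5 without background correction, 1 with the refitted array, 1 with the value table and 2 with scaling; at the low dose 0 became 1 without background correction and 1 with the value table. Members called at the high dose, 1 (Noxo1), were 2 (with Nox4) without background correction and in the value table, and 0 with median centring, scaling, slide as a fixed block or the 2 groups alone. Leaving out single arrays gave 4 to 59 genes at the high dose (59 without low-dose dam 27, 41 without high-dose dam 60, and 9 or fewer without control dam 7, 15 or 18 or high-dose dam 62, 63 or 65), 4 to 63 for the trend, 0 to 1 at the medium dose and 0 to 1 members at the high dose. The Noxo1 difference at the high dose lay between 0.99 and 1.34 over 36 alternatives and was called in 26, with an adjusted p (limma) from 0.00040 to 0.16. Noxa1 stayed above 0 and Nox4 below 0 at the high dose in all 36, and no partner or peroxide gene was called in any. Of 861 member differences under alternatives, 846 moved by less than 1 SD between dams and 15 by more, among them the low-dose values of Cyba (0.05 with median centring) and Ncf4 (-0.84 with scaling). That SD is from the fit before refitting, where the SE of Nox4 was 0.27 against 0.12 after it. By this measure the low-dose moves on refitting of Nox4 (-0.42 to -0.09) and Cybb (-0.43 to -0.18) were below 1 SD. The causes were not tested. Nox1 and, in part, Duox1 are limited by signal near background. No paired analysis was possible because the animal numbers in the titles are not shared between groups; slides, which did hold dams of different groups, were fitted as a block instead.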
